A study of Rattus norvegicus with 6 samples.

Results

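The genes described here are 9 WNT ligands (Wnt2, Wnt2b, Wnt4, Wnt5a, Wnt5b, Wnt9a, Wnt10b, Wnt11 and Wnt16), taken by gene symbol from a deposited table of 30498 rat genes. RNA sequencing compared rcMSC, mesenchymal stem cells from cranial bone marrow, with rbMSC, mesenchymal stem cells from the marrow of the femur and tibia, in 3 libraries each. Both groups are labelled wild type, and the series concerns transplanting such cells after spinal cord injury. The sources used here do not state strain, sex, age, passage number or medium, or whether replicate libraries represent different animals or cultures, so p-values measure the spread between these libraries only, which may be technical.

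WNT proteins are secreted, lipid-modified signals that act over short distances. They bind Frizzled receptors together with LRP5 or LRP6 and stabilise β-catenin, or they bind Frizzled with ROR or RYK receptors and act on cell polarity and movement without β-catenin. In bone and its marrow they are known for steering stromal progenitors towards osteoblasts or adipocytes and for restraining bone resorption.

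Total counts per library ranged from 21340290 to 26928079, and a single count equalled 0.0364 to 0.0468 CPM (counts per 1e6 after TMM scaling, which evens out library composition). All 9 stromal marker genes, such as Thy1 and Pdgfra, were detected in both groups, and so were all 16 macrophage marker genes, such as Csf1r and Cd68. Of the stromal genes, 4 were higher in rcMSC (Col1a1, Col1a2, Cd44 and Eng) and 5 were lower (Thy1, Nt5e, Itgb1, Pdgfra and Pdgfrb), with a median log2 fold change of -0.43. Over all genes tested, 22.6% were higher and 23.2% lower in rcMSC (edgeR adjusted p under 0.05). The stromal genes summed to 59976 to 73765 CPM in rcMSC, against 41868 to 42114 CPM in rbMSC. Without the collagen I genes Col1a1 and Col1a2 they summed to 3274 to 3823 CPM in rcMSC, against 4901 to 4929 CPM in rbMSC. Of the 16 macrophage genes, 11 were lower in rcMSC, beside 23.2% of all genes tested. They summed to 704 to 732 CPM in rcMSC, against 1158 to 1165 CPM in rbMSC. The 12 cell cycle genes summed to 154 to 171 CPM in rcMSC, against 334 to 341 CPM in rbMSC. None of the macrophage or cell cycle genes was at 0, and of 7 lymphoid genes, which summed to at most 0.994 CPM, Cd3d and Cd3g were at 0 in all libraries. Endothelial genes summed to 35 to 37 CPM in rcMSC, against 42.3 to 43.8 CPM in rbMSC. Erg and Tie1 were lower and Tek was higher in rcMSC, and without Erg and Tie1 the sum was 10.3 to 12.5 CPM in rcMSC, against 6.08 to 9.26 CPM in rbMSC. Epithelial genes summed to 2.88 to 3.72 CPM in rcMSC, against 5.84 to 7.36 CPM in rbMSC, and without Cdh1 to 1.57 to 2.04 CPM in rcMSC, against 1.17 to 1.78 CPM in rbMSC. The part of these differences in the WNT results was not tested, and in bulk RNA fewer cells of a type and less RNA per cell cannot be told apart. The library rcMSC replicate 3 stood apart. It differed from the other rcMSC libraries by a median of 0.178 to 0.179 in log2 CPM, against 0.0904 between rcMSC replicates 1 and 2 and 0.0932 to 0.0968 among rbMSC libraries. Results are therefore given with and without it where it matters.

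The promoters of 4 genes are shown because Wnt2 and Wnt16 had the largest increases among ligands whose groups did not overlap, Wnt5a had the highest level and Wnt2b was the ligand that fell. Each is the stretch of 250 bases before the annotated transcription start, 5′ to 3′ on the gene's strand, from RefSeq in build GRCr8, a later build than the mRatBN7.2 of the deposited counts. Of the 9 ligands, 7 matched a promoter there; Wnt5b and Wnt10b did not. Capitals mark exact matches on either strand to the CCAAT box, the GC box (GGGCGG), the E box (CACGTG) or a homeobox core (TAATTA).
Wnt2 (chr4:47340285-47340534, minus strand): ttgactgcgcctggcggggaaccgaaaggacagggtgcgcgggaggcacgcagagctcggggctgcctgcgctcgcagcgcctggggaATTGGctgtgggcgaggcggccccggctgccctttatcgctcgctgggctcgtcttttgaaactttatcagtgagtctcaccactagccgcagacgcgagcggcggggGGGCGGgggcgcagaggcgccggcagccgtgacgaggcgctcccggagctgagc
Wnt16 (chr4:51786478-51786727, plus strand): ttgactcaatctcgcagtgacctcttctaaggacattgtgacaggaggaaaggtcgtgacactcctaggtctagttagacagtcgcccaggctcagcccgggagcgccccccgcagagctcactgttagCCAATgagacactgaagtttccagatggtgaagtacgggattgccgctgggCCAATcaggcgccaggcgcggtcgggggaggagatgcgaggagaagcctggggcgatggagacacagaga
Wnt5a (chr16:3703415-3703664, plus strand): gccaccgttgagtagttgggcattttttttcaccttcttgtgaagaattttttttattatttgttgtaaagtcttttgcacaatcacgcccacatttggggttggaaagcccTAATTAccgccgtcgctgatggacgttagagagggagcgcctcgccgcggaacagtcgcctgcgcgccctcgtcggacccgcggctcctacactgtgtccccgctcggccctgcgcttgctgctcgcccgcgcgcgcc
Wnt2b (chr2:195156946-195157195, minus strand): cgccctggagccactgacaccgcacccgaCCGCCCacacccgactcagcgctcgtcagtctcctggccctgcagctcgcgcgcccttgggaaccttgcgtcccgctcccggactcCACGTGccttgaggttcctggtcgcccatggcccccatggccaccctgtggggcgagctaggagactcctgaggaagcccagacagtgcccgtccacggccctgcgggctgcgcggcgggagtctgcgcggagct

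The promoters of Wnt2 and Wnt16 were the ones among the 7 with a CCAAT match, which 34% of 33469 rat promoters of the same length hold. Wnt16 had matches starting 121 and 70 bases before the start, and Wnt2 had one 162 bases before it on the opposite strand. The E box CACGTG (5.59% of all promoters) was found in Wnt2b and Wnt9a, and TAATTA, a homeobox core (4.86%), in Wnt5a. The GC box GGGCGG (30.5%) was found in 4 of the 7, with 9 matches in Wnt4, some of them overlapping. G and C made up 57.2% (Wnt5a) to 86.4% (Wnt4) of the bases in the 7 windows, against a median of 51.2% over all promoters. The part of this base content in the matches was not tested. The site of TCF and LEF factors, searched only as CTTTGAA (4.68% of all promoters) and CTTTGAT (3.15%), had no match in the 7 windows. Other forms of that site were not searched. The TATA box, searched as TATAAA (12.9%), had no match there either. Both strands were searched, and in these windows no match of one motif overlapped a match of another. A match describes the letters of a promoter and is not a measured binding site.

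Of the 9 ligands, 5 were higher in rcMSC (Wnt2, Wnt16, Wnt11, Wnt9a and Wnt5a), 1 was lower (Wnt2b), and Wnt4, Wnt5b and Wnt10b did not pass the threshold (edgeR's quasi-likelihood test, adjusted p under 0.05 over all 14836 genes tested). Over all genes, the same test called 22.6% higher and 23.2% lower in rcMSC, so a call in either direction was common in this comparison. All 9 ligands passed the low-count filter, Wnt2 and Wnt11 through rcMSC and Wnt2b and Wnt5b through rbMSC, where their levels were higher. The median log2 fold change was 0.46 over the 9 ligands and 0.015 over all genes tested. The libraries of the groups did not overlap for 6 ligands, 4 of them higher (Wnt2, Wnt16, Wnt9a and Wnt5a) and 2 lower (Wnt2b and Wnt5b) in rcMSC; over all genes tested, 28.3% did not overlap and were higher and 28.8% did not overlap and were lower. Without rcMSC replicate 3, 5 ligands were higher and 3 lower, beside 29.9% and 30.2% of all genes.

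**Figure D1:**
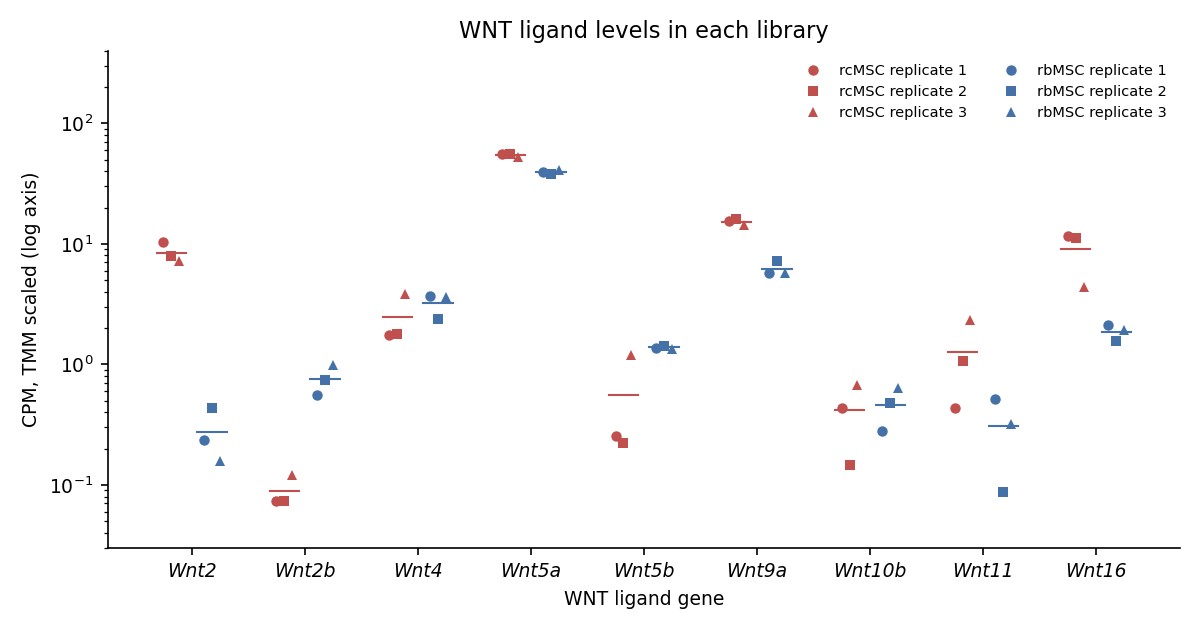
CPM after TMM scaling (log axis) of the 9 WNT ligands in each library, rcMSC in red left of rbMSC in blue; symbols mark the replicate and lines the group means. Wnt2 lay between 7.15 and 10.3 CPM in rcMSC, against 0.158 to 0.432 CPM in rbMSC, while rcMSC replicate 3 (triangle) lay apart from the other rcMSC libraries for Wnt4, Wnt5b and Wnt16.

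Among the ligands known mainly for β-catenin signalling, Wnt2, which in mouse is needed for lung and placental development, changed most. Its gene lies on chromosome 4 from 46333998 to 46374402 (mRatBN7.2, ENSRNOG00000051905). It had 284, 216 and 179 counts in rcMSC replicates 1 to 3, against 5, 10 and 4 counts in rbMSC replicates 1 to 3. The lowest rcMSC library was 16.5 times the highest rbMSC library in CPM. Mean levels were 8.48 ± 1.7 CPM in rcMSC and 0.275 ± 0.14 CPM in rbMSC (n = 3 each, SD). edgeR put the change at 4.93 on the log2 scale (SE 0.30, adjusted p = 5.89e-07), a fold of 30.6, and it was 5.04 without rcMSC replicate 3. Only 1 of the 3 rbMSC libraries reached the level of the low-count filter, 0.389 CPM, so Wnt2 entered the test through rcMSC.

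Wnt9a, which in mouse keeps tissue at forming joints from turning into cartilage, was also higher in rcMSC. Its gene (ENSRNOG00000003066) lies on chromosome 10 from 44094140 to 44121133. It had 423, 434 and 361 counts in rcMSC, against 122, 168 and 145 counts in rbMSC. The 3 rcMSC libraries were alike and all lay above the rbMSC libraries, the nearest by a factor of 1.99 in CPM. The mean was 15.3 ± 0.78 CPM in rcMSC and 6.24 ± 0.89 CPM in rbMSC (n = 3 each, SD), which is 1.29 on the log2 scale (edgeR, SE 0.12, adjusted p = 1.73e-05).

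Wnt2b, a close relative of Wnt2, was the ligand that fell. Its gene (ENSRNOG00000014385) lies on chromosome 2 from 192453824 to 192470308. It had 2, 2 and 3 counts in rcMSC, against 12, 17 and 25 counts in rbMSC. The groups did not overlap, but all values were low and no rcMSC library reached the level of the filter, so that Wnt2b entered the test through rbMSC. The log2 fold change was -3.06 (SE 0.49, edgeR adjusted p = 0.000597), with 0.0888 ± 0.027 CPM in rcMSC and 0.762 ± 0.22 CPM in rbMSC (n = 3 each, SD). Wnt2 and Wnt2b thus changed in opposite directions.

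Wnt10b, which in mouse favours bone over fat formation by stromal cells, was low in both groups. Its gene (ENSRNOG00000061238) lies on chromosome 7 from 129922088 to 129927892. It had 12, 4 and 17 counts in rcMSC, against 6, 11 and 16 counts in rbMSC. All rbMSC values lay within the rcMSC range in CPM. The log2 fold change was -0.17 with a 95% interval of -1.36 to 1.02 (edgeR adjusted p = 0.818). Changes within that interval, in either direction, are not excluded.

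Among the ligands known mainly for signalling without β-catenin, Wnt5a, the ROR2 ligand that drives limb outgrowth in mouse, had the highest level in every library. Its gene (ENSRNOG00000015618) lies on chromosome 16 from 3697032 to 3718234. It had 1515, 1498 and 1304 counts in rcMSC, against 851, 872 and 1026 counts in rbMSC. The counts were the deepest of the family and the groups did not overlap in CPM, with 52.1 to 55.1 CPM in rcMSC and 37.7 to 40.6 CPM in rbMSC. In edgeR the log2 fold change was 0.46 (SE 0.07, adjusted p = 0.000273), a fold of 1.37, the smallest change among the called ligands.

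Wnt5b, the closest relative of Wnt5a, did not pass the threshold for a call, and it entered the test through rbMSC, since only 1 rcMSC library reached the level of the filter. Its gene (ENSRNOG00000008168) lies on chromosome 4 from 152609569 to 152733407. It had 7, 6 and 30 counts in rcMSC, against 29, 33 and 34 counts in rbMSC. Replicates 1 and 2 of rcMSC were low and replicate 3 was 5.04 times their mean in CPM, just under the rbMSC libraries. Over all 6 libraries the log2 fold change was -1.32 (SE 0.54, 95% interval -2.53 to -0.12, edgeR adjusted p = 0.0692). Without rcMSC replicate 3 it was -2.51 (edgeR adjusted p = 3.92e-06), so this library decided the call.

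Wnt11, known for cell movements in the vertebrate embryo and for kidney branching in mouse, passed narrowly. Its gene (ENSRNOG00000015982) lies on chromosome 1 from 153138197 to 153154294. It had 12, 29 and 58 counts in rcMSC, against 11, 2 and 8 counts in rbMSC. Replicate 1 of rcMSC lay at 0.437 CPM, below rbMSC replicate 1 at 0.514 CPM, so the groups overlapped. With all 6 libraries its log2 fold change was 2.04 (SE 0.70, edgeR adjusted p = 0.0398). The call was lost without rcMSC replicate 2 (adjusted p = 0.0625), rbMSC replicate 2 (0.12) or rbMSC replicate 3 (0.0991), and the log2 fold change was 1.30 without rcMSC replicate 3 (adjusted p = 0.0321).

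Wnt16 and Wnt4 are described with either branch. Wnt16, made by osteoblasts and known in mouse for restraining osteoclasts and thickening cortical bone, was higher in rcMSC. Its gene (ENSRNOG00000005781) lies on chromosome 4 from 50820968 to 50831380. It had 319, 301 and 109 counts in rcMSC, against 45, 36 and 49 counts in rbMSC. Replicate 3 of rcMSC was 0.384 times the mean of the other rcMSC libraries in CPM, yet 2.07 times the highest rbMSC library. The log2 fold change was 2.27 (SE 0.38, edgeR adjusted p = 0.00176) and 2.60 without rcMSC replicate 3.

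Wnt4, a ligand of kidney and female reproductive tract development, did not pass the threshold. Its gene (ENSRNOG00000013166) lies on chromosome 5 from 149514018 to 149532859. It had 48, 49 and 96 counts in rcMSC, against 79, 55 and 92 counts in rbMSC. Replicates 1 and 2 of rcMSC lay below all rbMSC libraries and replicate 3 above them all in CPM. The log2 fold change was -0.40 (95% interval -1.13 to 0.32, edgeR adjusted p = 0.334). Without rcMSC replicate 3 it was -0.87 (edgeR adjusted p = 0.00158).

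**Figure D2:**
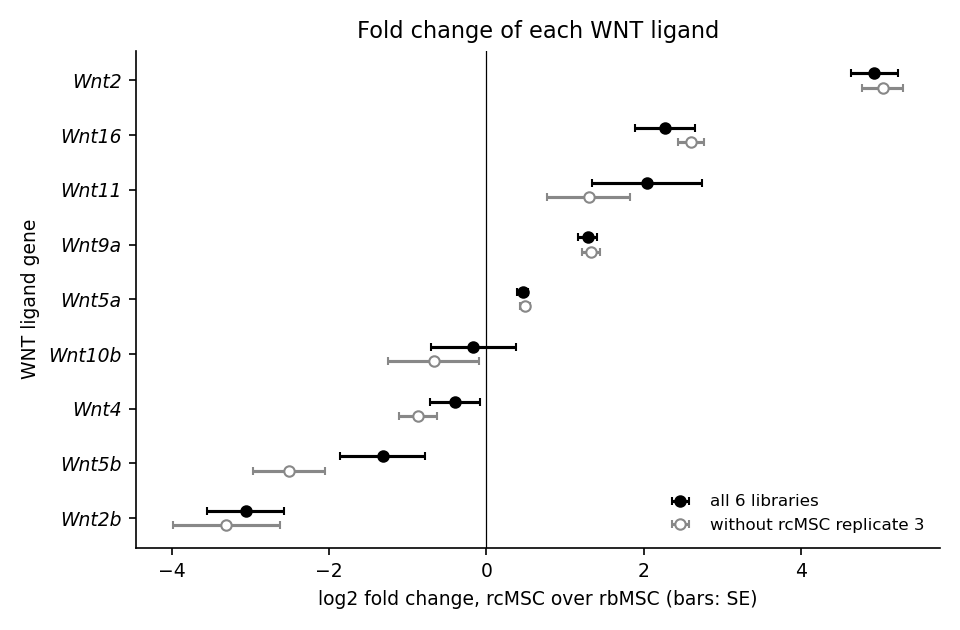
Log2 fold change of each WNT ligand, rcMSC over rbMSC, with bars of 1 SE, from all 6 libraries (black) and without rcMSC replicate 3 (open grey). Wnt2 stood at 4.93 and 5.04, while Wnt5b moved to -2.51 without that library, against -1.32 with it.

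The library rcMSC replicate 3 lay outside the range of rcMSC replicates 1 and 2 for all 9 ligands, and for 81.5% of all genes tested. It lay on the side of the rbMSC mean for 8 ligands, Wnt11 being the exception, and for 68.6% of all genes tested. Its ratio to the mean of the other rcMSC libraries ranged from 0.384 for Wnt16 to 5.04 for Wnt5b, with 2.16 for Wnt4, 2.33 for Wnt10b and 3.08 for Wnt11. The steadiest ligands were Wnt5a at 0.945 and Wnt9a at 0.92. In the same library the summed macrophage genes stood at 732 CPM, against 704 and 715 CPM in the other rcMSC libraries, but single genes moved both ways, with 10 of 16 above and 6 below both of these libraries. Csf1r had 77.3 CPM in replicate 3, against 41.4 and 43.6 CPM, while Lyz2 had 231 CPM, against 286 and 279 CPM. The cell cycle genes summed to 154 CPM, against 168 and 171 CPM, and the part of these genes in the position of the ligands was not tested.

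Levels were set beside each other between genes as TPM, counts divided by gene length and scaled to the same total in every library. In rcMSC, Wnt5a was highest at 32.4 ± 0.83 TPM (SD, n = 3), followed by Wnt16 at 18.9 ± 8.4, Wnt2 at 17 ± 3.3 and Wnt9a at 16 ± 0.67 TPM. The libraries of Wnt16, Wnt2 and Wnt9a overlapped, so their order was not resolved. Below them came Wnt4 at 7.05 ± 3.5 TPM, apart from its neighbours, and then Wnt11, Wnt5b and Wnt10b, which overlapped at means of 1.73, 0.867 and 0.662 TPM. Wnt2b was last at 0.102 ± 0.032 TPM.

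In rbMSC, Wnt5a was again highest at 25.3 ± 0.9 TPM (SD, n = 3). Wnt4 at 9.94 ± 2.3 and Wnt9a at 7.01 ± 1 TPM followed and overlapped. Wnt16 at 4.22 ± 0.64 and Wnt5b at 2.29 ± 0.079 TPM were each apart from their neighbours. Wnt2b, Wnt10b, Wnt2 and Wnt11, between 0.445 and 0.941 TPM on average, each overlapped the next. Wnt2 thus stood among the upper ligands in rcMSC and among the lowest in rbMSC.

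The 9 ligands summed to 101, 95.2 and 87.7 TPM in rcMSC, against 53.1, 48.5 and 53.1 TPM in rbMSC. All rcMSC sums lay above the rbMSC sums. Wnt5a made up 34.3% ± 1.6 of the sum in rcMSC and 49.2% ± 0.86 in rbMSC (n = 3 each, SD), although its own level was higher in rcMSC. Wnt2, Wnt9a and Wnt16 together made up 60.6%, 58.1% and 44.4% in rcMSC, against 22.1%, 26.1% and 20.9% in rbMSC. These ligands had all been called higher in rcMSC from the same counts, so their joint share is not separate support for those calls. Wnt4 made up 7.63% ± 4.3 in rcMSC and 19.2% ± 3.5 in rbMSC. These shares and sums are descriptions and were not tested. They depend on the gene lengths in the deposited table. As shares of counts, Wnt5a stood at 59.1% in rcMSC and 73% in rbMSC, and Wnt2, Wnt9a and Wnt16 together at 35.6% ± 4.8 in rcMSC and 15.6% ± 1.9 in rbMSC. On that scale Wnt4 stood at 2.74% in rcMSC and 5.98% in rbMSC, where it was below Wnt9a at 11.6%.

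**Figure D3:**
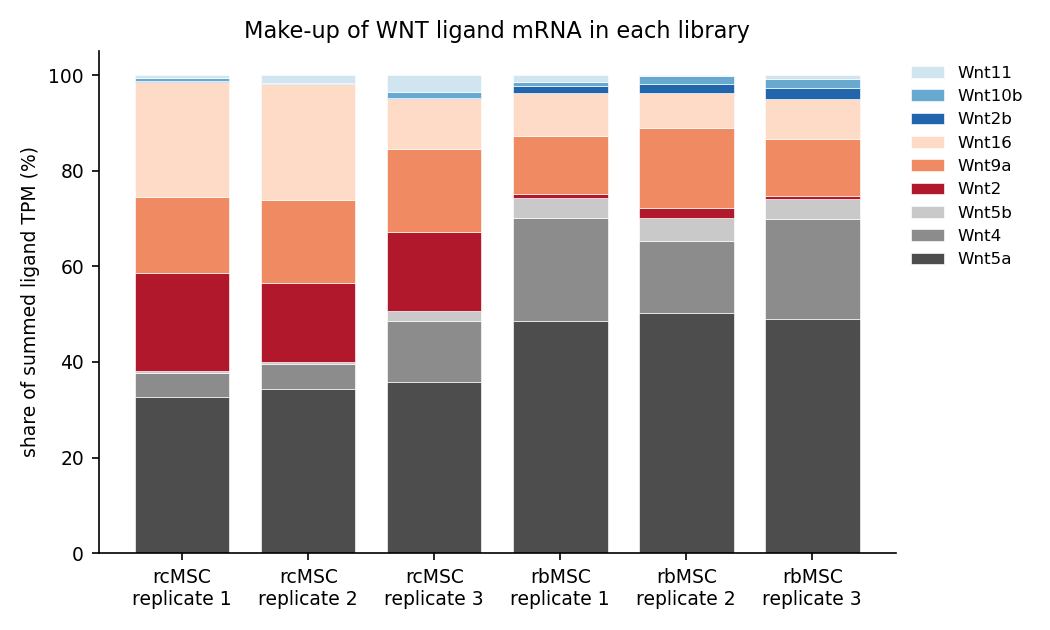
Share of the summed TPM of the 9 WNT ligands taken by each ligand, as a percentage, in the 3 rcMSC libraries (left) and the 3 rbMSC libraries (right). Wnt2, Wnt9a and Wnt16 (reds), all called higher in rcMSC from the same counts, took 44.4% to 60.6% in rcMSC, against 20.9% to 26.1% in rbMSC.

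The table holds 10 other WNT ligand genes, and none of them had enough counts to be tested. Wnt1, Wnt3a, Wnt8a, Wnt8b, Wnt9b and Wnt10a had 0 counts in all 6 libraries, which allows up to 3 counts per library, or 0.109 to 0.14 CPM. Wnt7a had 1, 0 and 1 counts in rcMSC and 1, 0 and 1 counts in rbMSC. Wnt7b had 2, 0 and 0 counts in rcMSC and 2, 0 and 2 counts in rbMSC. These were at the edge of detection in both groups. Wnt6 had 1, 0 and 0 counts in rcMSC and 0, 1 and 3 counts in rbMSC, and Wnt3 had 2 counts, both in rcMSC replicate 3.

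No exon of the 9 ligands overlapped an exon of another gene in the deposited table. St7l lies across part of the Wnt2b gene and Fbxl14 within the span of Wnt5b, both on the strand opposite to the ligand. The strand setting of the counting is not given in the sources used here.

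Genes that process WNT ligands and carry them out of the cell moved in both directions. Of 9 tested, 4 were higher in rcMSC and 2 lower, beside 22.6% and 23.2% of all genes. Without rcMSC replicate 3, 6 were higher and 2 lower, beside 29.9% and 30.2% of all genes. With all 6 libraries the median log2 fold change was 0.25. Wls, the carrier that takes WNT proteins to the cell surface, had 665 TPM in rcMSC and 396 TPM in rbMSC on average, the highest mean TPM of this list over the 6 libraries, and its log2 fold change was 0.85 (SE 0.06, edgeR adjusted p = 1.52e-06). Porcn, the enzyme that attaches the lipid, fell, with 6.5 ± 0.81 CPM in rcMSC and 9.67 ± 0.72 CPM in rbMSC (n = 3 each, SD), by 0.58 on the log2 scale (edgeR, adjusted p = 0.00509). Trabd2b, a protease that inactivates WNT proteins, rose by 1.29, the retromer subunit Vps26a by 0.50, and Tmed5 of the early secretory route fell by 0.43 on the log2 scale. Notum, which removes the lipid, had 0, 1 and 8 counts in rcMSC and 0 counts in each rbMSC library and was not tested.

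Among 7 Frizzled receptors tested, 2 were higher and 4 lower in rcMSC, beside 22.6% and 23.2% of all genes. Fzd6 rose most, with 49.6 ± 3.1 CPM in rcMSC and 9 ± 0.79 CPM in rbMSC (n = 3 each, SD), an increase of 2.46 on the log2 scale (edgeR, SE 0.09, adjusted p = 1.67e-08). Fzd2, the receptor with the highest mean TPM over the 6 libraries, rose by 0.59. In rbMSC, however, Fzd7 stood above it, at 89.4 TPM against 57.7 TPM for Fzd2. Fzd7, Fzd8 and Fzd3 had log2 fold changes of -1.09, -0.86 and -0.45. The call of Fzd3 was lost without rcMSC replicate 1 or rbMSC replicate 2 (edgeR adjusted p = 0.0532 and 0.0634). Fzd5, the other lower receptor at -0.30, lost its call in the same fits (adjusted p = 0.0611 and 0.0531) and without rcMSC replicate 2 or rbMSC replicate 1 (0.0554 and 0.0758). Without rcMSC replicate 1 or rbMSC replicate 2, 2 of 7 receptors were thus lower, beside 19.3% and 18.6% of all genes. Fzd1, Dkk1, Gpc4 and Trabd2a were not analysed here.

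Of 9 co-receptors tested, 3 were lower in rcMSC and 0 were higher (edgeR), beside 23.2% and 22.6% of all genes. At an unadjusted p under 0.05, 1 was higher, and in DESeq2 0 were higher. Ror2, the receptor through which Wnt5a acts without β-catenin, had 22.5 ± 0.43 CPM in rcMSC and 43.2 ± 0.79 CPM in rbMSC (n = 3 each, SD), so it fell by 0.94 on the log2 scale (edgeR, SE 0.07, adjusted p = 1.96e-06). Wnt5a and Ror2 thus changed in opposite directions. Lrp5, a co-receptor of the β-catenin branch, fell by 0.87 (edgeR adjusted p = 2.98e-05), and Adgra2, a partner for Wnt7 signals in mouse brain vessels, fell by 0.33 on the log2 scale. Lrp6 had 279 ± 15 CPM in rcMSC and 310 ± 2.2 CPM in rbMSC (edgeR adjusted p = 0.0518), and Ptk7, the co-receptor with the highest mean TPM, had 332 ± 69 CPM in rcMSC and 385 ± 3.2 CPM in rbMSC (edgeR adjusted p = 0.194; SD, n = 3 each). Without rcMSC replicate 3, 6 co-receptors were lower and 1 was higher, beside 30.2% and 29.9% of all genes. Without rcMSC replicate 2, 1 was also higher, beside 17.7% of all genes.

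Of 5 glypicans tested, cell surface proteoglycans that bind WNT proteins, 3 were higher and 1 lower, beside 22.6% and 23.2% of all genes. The median log2 fold change was 0.72. Gpc3 had 5.34 ± 0.33 CPM in rcMSC and 0.797 ± 0.45 CPM in rbMSC (n = 3 each, SD) and rose by 2.71 on the log2 scale (edgeR, adjusted p = 8.52e-05). Gpc1, the glypican with the highest level, rose by 1.03 and Gpc6 by 0.72 on the log2 scale. Gpc3 reached the level of the low-count filter in 3 rcMSC and 2 rbMSC libraries, and Gpc2 in 2 rcMSC and 3 rbMSC libraries. Gpc2 was the lower one at -1.63 (edgeR adjusted p = 0.0442), a call that was lost without rcMSC replicate 1 (adjusted p = 0.102) or any 1 rbMSC library (0.0566 to 0.13), while the log2 fold change was -2.38 without rcMSC replicate 3.

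In the list of secreted WNT antagonists, 2 of 7 tested were higher and 3 lower, beside 22.6% and 23.2% of all genes. The secreted Frizzled-related proteins moved in opposite directions: Sfrp2 averaged 303 TPM in rcMSC and 3.1 TPM in rbMSC, while Sfrp1 averaged 2.78 TPM in rcMSC and 144 TPM in rbMSC. Sfrp4 fell by 1.41 on the log2 scale (edgeR adjusted p = 1.13e-06). Frzb was the other lower one at -1.92 (edgeR adjusted p = 0.0174). It had 1, 10 and 16 counts in rcMSC, against 32, 24 and 35 counts in rbMSC, and entered the test through rbMSC. Its call was lost without rbMSC replicate 1 or rbMSC replicate 3 (edgeR adjusted p = 0.0662 and 0.0619). Dkk3, listed here only as a member of the Dickkopf family, was the other higher one and rose by 0.26 (edgeR adjusted p = 0.00309). For comparison on the same TPM scale, the 9 ligands together averaged 94.7 ± 6.7 TPM in rcMSC and 51.5 ± 2.7 TPM in rbMSC (n = 3 each, SD).

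The relay inside the cell leads to β-catenin and its TCF and LEF partners. Of 17 of its genes tested, 2 were higher and 5 lower, beside 22.6% and 23.2% of all genes. The other 10 did not pass, a share of 58.8%, near the 54.2% of all genes tested that did not pass. Pygo1, a nuclear partner of β-catenin, rose by 1.07 and the transcription factor gene Lef1 by 0.91 on the log2 scale (edgeR adjusted p = 0.00011 and 0.00539). Tcf7l1, often a repressor, fell by 0.53, Pygo2 by 0.40 and Bcl9l by 0.21, the call of Bcl9l being lost without rbMSC replicate 1 (edgeR adjusted p = 0.0574). Ctnnb1, which encodes β-catenin, had 420 ± 6.2 CPM in rcMSC and 471 ± 7.4 CPM in rbMSC (n = 3 each, SD). It fell by 0.17 on the log2 scale (edgeR, adjusted p = 0.0225) and lost its call without any 1 library other than rcMSC replicate 3 (adjusted p = 0.0574 to 0.0992). Dvl3, the other lower gene at -0.15 (edgeR adjusted p = 0.0427), lost its call in the same fits (adjusted p = 0.0867 to 0.152). The count of lower genes was 2 without rbMSC replicate 1 and 3 without rcMSC replicate 1, rcMSC replicate 2, rbMSC replicate 2 or rbMSC replicate 3, beside 18.5% to 19.3% of all genes in those fits, and 6 genes were higher without rcMSC replicate 3, beside 29.9% of all genes.

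Genes known as targets and feedback regulators of β-catenin signalling were split. Of 10 tested, 3 were higher, 3 were lower and 4 did not pass, beside 22.6% higher and 23.2% lower over all genes. Lgr5, a receptor for the R-spondins that amplify WNT signals, had 8 ± 3.5 CPM in rcMSC and 0.599 ± 0.13 CPM in rbMSC (n = 3 each, SD) and rose by 3.72 on the log2 scale (edgeR, adjusted p = 4.39e-05). Axin2, a negative feedback target in many tissues, had 21.5 ± 3.5 CPM in rcMSC and 9.25 ± 0.72 CPM in rbMSC and rose by 1.21 (edgeR, adjusted p = 4.39e-05), while Nkd1 rose by 0.95. In the other direction, Nkd2 had 47.3 ± 17 CPM in rcMSC and 163 ± 5.2 CPM in rbMSC and fell by 1.79 (edgeR, adjusted p = 0.00126). Ccnd1, which encodes cyclin D1, fell by 0.66 and Apcdd1, a membrane inhibitor, by 0.56 on the log2 scale. The summed cell cycle genes, given above, were also lower in rcMSC, and their part in the value of Ccnd1 was not tested.

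In the planar polarity list, 4 of 13 tested were higher and 5 lower, beside 22.6% and 23.2% of all genes. The list shares Fzd3, Fzd6, Ror2 and Ptk7 with the receptor lists. Prickle1, a core polarity gene, rose by 1.05 (edgeR adjusted p = 2.62e-07) and Dact3 by 0.43 on the log2 scale. Vangl1 rose by 0.25 (edgeR adjusted p = 0.0183). Dact1, which binds Dishevelled, fell by 1.36 (edgeR adjusted p = 4.87e-07), Celsr3 by 1.36 and Vangl2 by 0.97. Without rcMSC replicate 1 or rbMSC replicate 2, where Fzd3 lost its call, 4 were lower, beside 19.3% and 18.6% of all genes. Vangl1 lost its call without rcMSC replicate 2, rbMSC replicate 1 or rbMSC replicate 3 (edgeR adjusted p = 0.0623, 0.0661 and 0.0888). In those fits 3 were higher, beside 17.7%, 16.8% and 17.6% of all genes. Without rcMSC replicate 3, 4 were higher and 6 lower, beside 29.9% and 30.2% of all genes. Over the 8 lists together, 19 of 73 distinct genes tested were higher and 24 lower, beside the 22.6% and 23.2% of all genes.

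**Figure D4:**
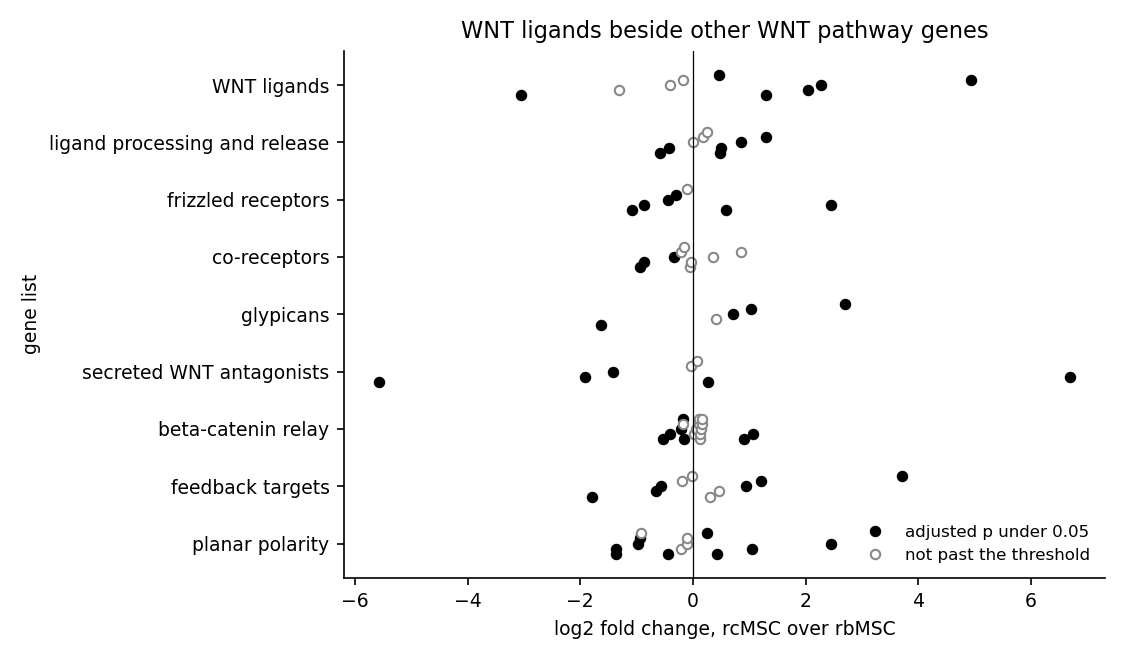
Log2 fold change, rcMSC over rbMSC, of every tested gene in the ligand list and the 8 other WNT pathway lists; filled points have an edgeR adjusted p under 0.05 and vertical offsets only keep points apart. The lists spread to both sides of 0, with ligands from -3.06 to 4.93 and antagonists from -5.58 to 6.70.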

How the data were processed

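RNA was sequenced as paired reads of 150 nt. Trimming used Trim Galore 0.6.7 and a tool written "Trimmotaic" 0.39, alignment used STAR 2.7.9a on mRatBN7.2, and featureCounts 2.0.1 gave the counts, per the labels' protocols. The deposited table gives raw counts per gene and gene lengths, and the submitters' processing notes also name DESeq2 1.20.0. Here, counts were scaled by TMM and tested with edgeR 4.0.16 (filterByExpr with a minimum of 10 counts, robust quasi-likelihood fit, 3 rcMSC against 3 rbMSC libraries, no covariates), with Benjamini-Hochberg adjustment over 14836 genes and a threshold of 0.05. TPM was computed from the deposited lengths. The test recovered 62% of genes simulated with a 1.5-fold change and 93.8% with a 2-fold change (14702 genes, 10 false calls). The simulation used the same dispersion for all genes, few changed genes and no library that stood apart. These rates therefore do not carry over to single ligands here. Intervals and the floor of 3 counts cover their own error only: reads carried no molecular identifiers.

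Members and lists were chosen with earlier results of these data known. Named were all 9 ligands, other WNT ligands with a count, Porcn, Wls, Notum, Lrp5, Lrp6 and Ror2, and of each other list up to 3 called genes per direction by size of change (where mean log2 CPM was 0 or more), plus the gene with the highest TPM. Fzd5, Frzb, Vangl1 and Dvl3 were named as well, because their calls were lost with 1 library left out. Alternatives changed the scaling, filter, test (DESeq2 1.42.0; limma 3.58.1), dispersion, replicate block and library set. Correlations of deviations were -0.0821 to 0.00937 between libraries of the same replicate number, against -0.0886 to 0.104 between different numbers. With 3 libraries per group they cannot decide whether replicate numbers pair the libraries.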

Additional observations from a re-analysis of the deposited data

How the results depend on the processing

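Between 4 and 5 ligands were higher under every alternative run (2 other scalings, 2 other filters, DESeq2, non-robust dispersions, limma voom with quality weights, the replicate block and each library left out), beside 15.6% to 29.9% of all genes. The count of lower ligands was 1 in the reported fit, 0 with CPM of at least 1 in at least 3 libraries, where Wnt2b, Wnt10b and Wnt11 were not tested and 24.7% of all genes were lower, 3 with limma voom with quality weights (29.6% of all genes), and 1 to 3 with 1 library left out (3 without rcMSC replicate 3). With the replicate block it was 2 (21.9% of all genes), Wnt5b passing at -1.49 (edgeR adjusted p = 0.0431), with 3046 genes higher and 3251 lower overall. Wnt10b changed sign to 0.24 without rcMSC replicate 2 and 0.13 without rbMSC replicate 3 (range -0.67 to 0.24 with 1 library left out). Wnt2 ranged from 4.64 to 5.42, Wnt16 from 2.05 to 2.60, Wnt9a from 1.23 to 1.41, Wnt5a from 0.43 to 0.49 and Wnt2b from -3.31 to -2.82 over the alternatives. Wnt11, which stood above Wnt16 without rcMSC replicate 1, rcMSC replicate 2 or rbMSC replicate 1, ranged from 1.30 to 2.59 (adjusted p 0.00851 to 0.12), and without a low-count filter its adjusted p was 0.0563. Wnt2b, Wnt10b, Wnt5b and Wnt11 had at most 58 counts in any library, so their fold changes are imprecise.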
